A study of Mus musculus with 24 samples.

Results

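This account covers the earlier of the study's time points: whole ears of mice at day 5 after tamoxifen was begun, 6 libraries of genotype CARD14E138A against 6 of genotype Wt. These are 12 of the 24 samples of the series; they were chosen by their labels and column names, with no measured value involved, and the remaining 12 were taken at 1 month. All mice were C57BL/6 and all, wild type included, received intraperitoneal tamoxifen daily on 3 days. The mutants carry a Card14LSL-E138A knock-in, in which tamoxifen acting on CreERT2 lets the E138A form be made from the gene's own locus. The promoter that drives CreERT2, whether the wild-type mice carried it, and the sex, age and hour of sampling are not given in the sources used here. Nor do the labels say that each library came from a separate animal, so that p-values speak of the spread among libraries, which may be technical.

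CARD14 is a scaffold protein of keratinocytes. Once active it joins BCL10 and MALT1 in a complex that switches on the NF-κB transcription factors and MAP kinases, and NF-κB in turn induces cytokines, chemokines and its own inhibitors, such as IκBα and A20. Gain-of-function changes in CARD14 are known from psoriasis, a disease with thickened epidermis, neutrophils and IL-17-producing lymphocytes in the skin. The mouse ear holds thin skin on both faces, with fat, striated muscle and a sheet of elastic cartilage between them, and RNA of all of these was read together.

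Library totals were 15661515 to 16998900 counts in wild type and 16803680 to 18852963 in mutants, and were higher in mutants (exact permutation test, two-sided, p = 0.00866, 0.0325 after Benjamini-Hochberg adjustment over 6 library measures). Counts from ribosomal protein genes made up 3.62 ± 0.208% of the wild-type and 4.42 ± 0.776% of the mutant libraries (SD, n = 6 each, exact permutation p = 0.0108, adjusted 0.0325), with the highest share, 5.87%, in mutant replicate 1. Both calls were lost on leaving out a single library (adjusted p up to 0.0649), except mutant replicate 1 for the totals and mutant replicate 5 for the ribosomal share. Genes with a count, the share of the 50 most abundant genes, the mitochondrial share and the correlation of log2 CPM with GC content gave adjusted p-values of 0.413 to 0.673. The Card14 gene (ENSMUSG00000013483) lies on chromosome 11 of GRCm38 between bases 119307768 and 119345375. Its RNA ran from 34.6 to 54.2 CPM (median 48.5) in wild type and 35.1 to 65.4 CPM (median 44.5) in mutants, which overlapped (log2 fold change 0.02 ± 0.19, SE, Benjamini-Hochberg adjusted p of edgeR's quasi-likelihood test = 0.943). CPM are counts scaled to a library of 1000000. The counts do not tell the E138A from the normal transcript, so that this level does not check the genotype. As labelled, the tissue held keratinocyte RNA (Krt10 at 9686 to 14436 CPM (median 11709) in wild type), cartilage RNA (Acan at 177 to 254 CPM (median 215)) and striated muscle RNA (Myh1 at 1439 to 1830.0 CPM (median 1543)).

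By the edgeR test 3579 of 17287 genes tested were higher in mutants (20.7%) and 3489 were lower (20.2%), and the background for every count of a gene group below is these shares. In 5933 genes (34.3%) the 6 mutant and 6 wild-type libraries did not overlap. The median log2 fold change of all genes was -0.02, and log2 fold changes are mutant minus wild type throughout, with their SE. Either way 40.9% were called, and 1321 (7.64%) rose and 1310 (7.58%) fell by 1 or more on the log2 scale. Changes of 2 or more were mostly upward. Of changes between 1 and 2 in size, 848 were upward and 1174 downward, whereas of those of at least 2, 473 were upward and 136 downward, and of those of at least 5, 106 were upward and 2 downward. Among protein-coding genes 21.9% were higher and 21.1% lower. Processed pseudogenes were higher in 78 and lower in 11 of 476, and antisense genes were higher in 32 and lower in 79 of 347. Reads of a pseudogene or of an antisense gene may come from the parent or the opposite gene, which these counts cannot part.

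**Figure D1:**
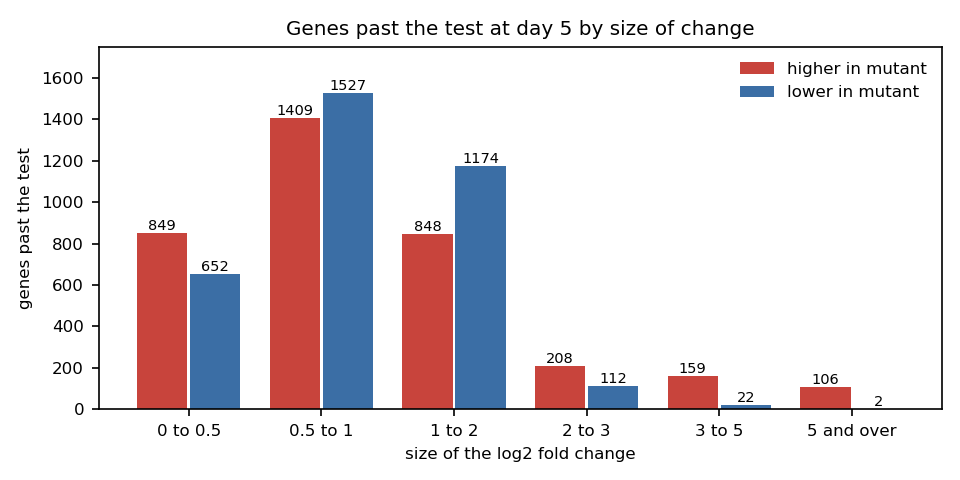
Number of genes past the edgeR test at day 5 (y axis) by the size of the log2 fold change (x axis), for genes higher (red) and lower (blue) in mutants. Below a size of 2 each direction leads in some class (849 higher and 652 lower under 0.5, 848 and 1174 between 1 and 2), and from 2 upward the higher class holds 208, 159 and 106 genes and the lower class 112, 22 and 2.

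Some keratin and S100 genes and the cornified envelope gene Sprr2a2 gained the most counts. Collagen and lipid genes lost the most, together with some epidermal genes, the keratin gene Krt15 and the envelope gene Lor among the latter. CPM rank genes by their share of counts, which grows with transcript length, and not by molecules. By gain in mean CPM, the top 15 genes past the test held the keratin genes Krt1, Krt14, Krt16, Krt6b and Krt6a. Krt1 of the suprabasal and Krt14 of the basal layer rose by 2.94 ± 0.37 and 0.69 ± 0.18. Krt10, also suprabasal, did not pass the main test. It was lower in the fit of only the 12 libraries of day 5 (-0.31, edgeR adjusted p = 0.0295). Krt16, a keratin of wounded and psoriatic epidermis, rose from 10.1 to 23.6 CPM (median 15.9) in wild type to 634 to 4742 CPM (median 2586) in mutants (7.30 ± 0.71, adjusted p = 4.22e-08). The cornified envelope precursor gene Sprr2a2 rose from 8.4 to 82.2 CPM (median 21.9) in wild type to 1228 to 5001 CPM (median 3455) in mutants, and reads of the near-identical Sprr2a copies can be divided between them. S100a9, which codes for a subunit of calprotectin, rose from 2.16 to 3.82 CPM (median 2.49) in wild type to 1122 to 4948 CPM (median 3111) in mutants (10.03 ± 0.50). Clca3a2, of a family of secreted chloride channel regulators, rose from 372 to 531 CPM (median 427) in wild type to 1318 to 2436 CPM (median 1679) in mutants (2.07 ± 0.32), and Chil1, a chitinase-like protein gene, from 23.4 to 29 CPM (median 25.7) in wild type to 345 to 1183 CPM (median 1010.2) in mutants. Smaller in fold but large in counts were the rises of Fabp5, a fatty acid carrier of keratinocytes (1.59 ± 0.25), of Fth1, the ferritin heavy chain (0.82 ± 0.20), of the chaperone gene Hspa8 (0.82 ± 0.13), of the mucin-like Fcgbp (0.93 ± 0.19) and of Actb (0.64 ± 0.16), the actin gene often used as a reference, from 1127 to 1246 CPM (median 1212) to 1424 to 2200.5 CPM (median 1991). In all of the 15 save Fcgbp the mutant libraries lay above every wild-type library.

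The largest losses were of collagen and lipid genes and of some genes of the epidermis and muscle. Scd1, a fatty acid desaturase gene of sebaceous glands, lost the most CPM and fell from 5626 to 7736 CPM (median 7027) in wild type to 1962 to 3642 CPM (median 2835) in mutants (-1.30 ± 0.17, adjusted p = 1.55e-06). The fibrillar collagen genes Col1a1 (-1.71 ± 0.28), Col1a2 (-1.63 ± 0.24) and Col3a1 (-1.08 ± 0.24) and the collagen-binding Sparc (-1.34 ± 0.25) fell together, Col1a1 from 3653 to 5087 CPM (median 4557) in wild type to 806 to 2097 CPM (median 1234) in mutants. Lor, which codes for the main protein of the cornified envelope, fell from 867 to 1178 CPM (median 969) in wild type to 104 to 400.3 CPM (median 192) in mutants (-2.20 ± 0.33), and the suprabasal gene Sbsn fell by less (-0.95 ± 0.17). Krt15, a keratin of basal cells, fell from 1376 to 1876 CPM (median 1438) in wild type to 147 to 514 CPM (median 182) in mutants (-2.52 ± 0.28), while Krt14 of the same layer was among the gains. Dst (-1.18 ± 0.29) and Col17a1 (-0.72 ± 0.14), which anchor the basal cell to its basement membrane, fell as well, as did the matrix protease inhibitor gene Timp3 (-1.37 ± 0.16), Apoe (-0.81 ± 0.19), Gsn (-0.96 ± 0.20) and the muscle calcium pump gene Atp2a1 (-0.97 ± 0.37). Of these 14 only Atp2a1 had a mutant library inside the wild-type range. Its call was also lost on leaving out any of mutant replicates 1, 2, 5 and 6 or wild-type replicates 3 and 5 (adjusted p 0.0538 to 0.0838).

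**Figure D2:**
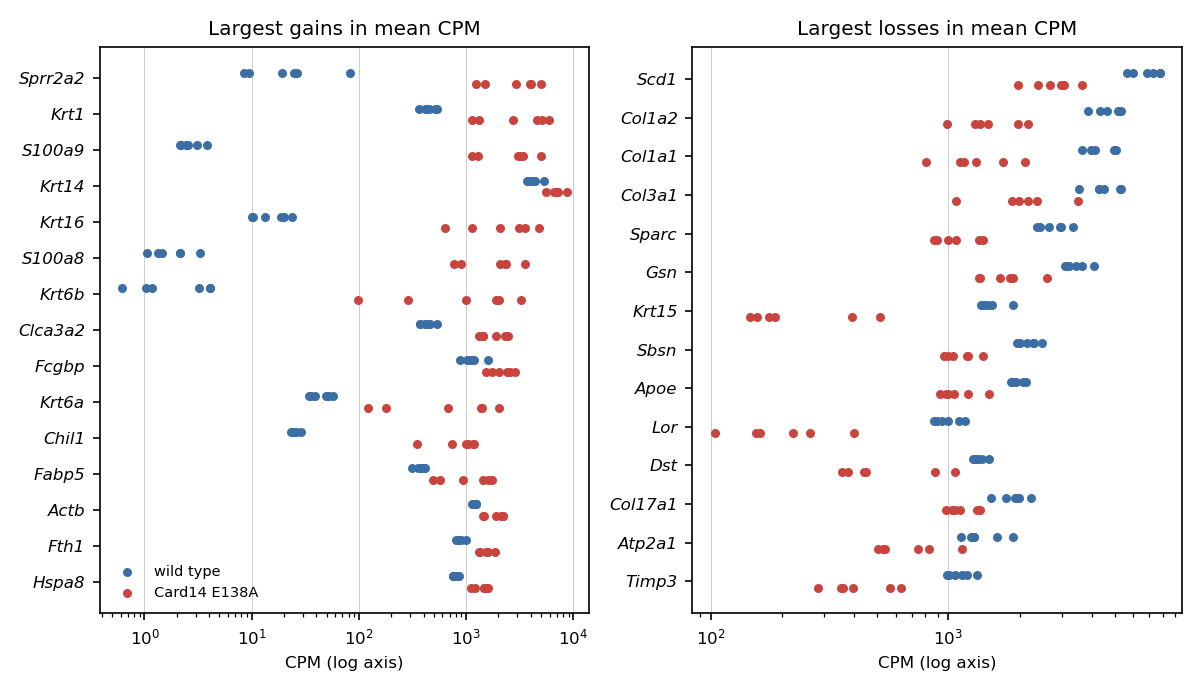
CPM (x axis, log scale) of the 15 genes past the test with the largest gain (left) and 14 of the 15 with the largest loss (right) of mean CPM, with 1 point for each of the 6 wild-type (blue) and 6 mutant (red) libraries. The red points of S100a8 and S100a9 lie between 763 and 4948 CPM and the blue points at 1.05 to 3.82 CPM, while those of Krt6b and Krt6a spread along the axis.

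The mutant libraries differed in how far they had moved. A response strength was computed for each library as the slope of its log2 differences from wild type on the mean difference of the other libraries over all genes tested. A slope of 1 matches the mean response of the other mutants, and 0 is none. The axis so differs among mutant libraries, strongly changed genes weigh most in it, and 1 is not a common average. Response strength was 0.643 in mutant replicate 1 and 0.673 in replicate 3, and 1.20, 1.09, 1.09 and 1.15 in replicates 2, 4, 5 and 6. The 6 wild-type libraries lay between -0.01 and 0.05. Every mutant library was therefore far from every wild-type library, and replicates 1 and 3 were at about the same distance below the others. The correlation across genes behind the slope was 0.793 in replicate 1, 0.856 in replicate 3 and 0.908 to 0.939 in the other 4 (genes are not independent replicates). In a principal component analysis of the 12 libraries the leading component held 68.5% of the variance and put replicates 1 and 3 between wild type and the other mutants. The next component held 6.64% and set replicate 1, at 49.0, and replicate 3, at 25.3, apart from replicate 6, at -28.0, with wild type between -10.1 and 0.733. Over all genes the median SD of log2 CPM was 0.153 in wild type and 0.237 in mutants, and 74.7% of genes had the larger SD in mutants. With mutant replicates 1 and 3 both left out, 3583 genes were higher and 3951 lower.

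**Figure D3:**
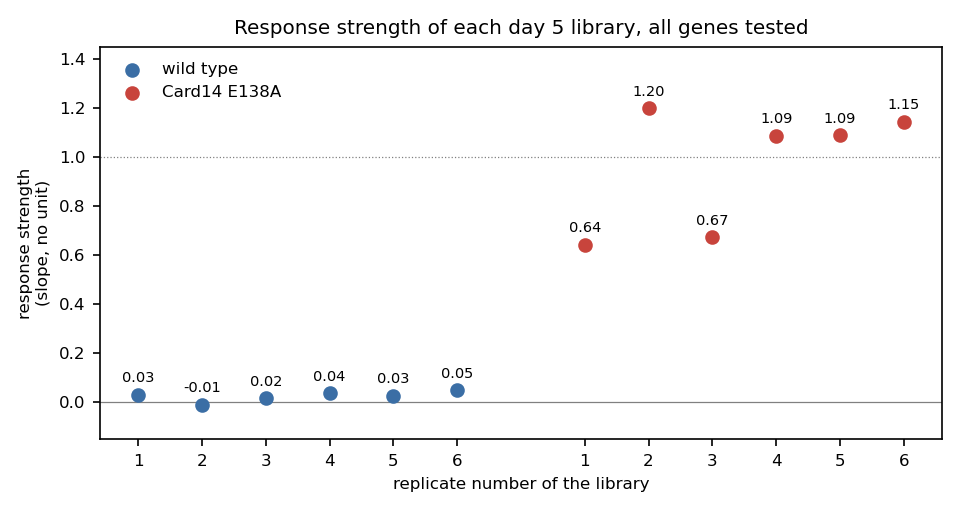
Response strength (y axis, a slope with no unit) of the 6 wild-type (blue) and 6 mutant (red) libraries, by replicate number, where 1 (dotted line) is the mean response of the other mutants. Wild-type points lie at -0.01 to 0.05, mutant replicates 1 and 3 at 0.643 and 0.673 and the other 4 mutants at 1.09 to 1.20.

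Strongly changed genes differed in how far they tracked these strengths. Among the 335 genes past the test that changed by 2 or more on the log2 scale and had a mean of at least 5 CPM, the 10 with the smallest SD of log2 CPM over mutants were Ccl22, Ccl20, Tnfaip3, Zc3h12c, Ccl17, Ifitm3, Serpina3i, Defb6, Nfkbiz and Ehf. They were chosen by that spread, so that it is a description and not a test. Ccl20, which draws cells that bear CCR6, lay at 71, 59.4, 75.1, 69, 59 and 60.9 CPM in mutant replicates 1 to 6, against 0.261 to 0.868 CPM (median 0.494) in wild type (6.99 ± 0.47). Tnfaip3, which codes for the NF-κB inhibitor A20, lay at 83.5, 98.7, 112, 108, 90.8 and 96.5 CPM, against 13 to 19.7 CPM (median 16.8). In Ccl20 replicates 1 and 3 were the highest mutants, and in Tnfaip3 replicate 3 was the highest and replicate 1 the lowest. Ccl17 and Ccl22, ligands of CCR4, lay at 32.2 to 42.6 CPM (median 40.1) and 33.9 to 42.6 CPM (median 36.4) in mutants, and Nfkbiz, which codes for the nuclear cofactor IκBζ, at 118, 181, 129, 152, 135 and 131 CPM. Ehf, an epithelial transcription factor gene, rose by 2.87 ± 0.33, the beta-defensin gene Defb6 by 2.76 ± 0.19, Zc3h12c, of a family of ribonucleases, by 2.32 ± 0.36, and Serpina3i and Ifitm3 by 2.09 ± 0.19 and 2.24 ± 0.20.

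The 10 with the largest SD were Krt6b, Gm49339, Sprr2j-ps, Cxcl3, Slc26a4, Acod1, Sprr2g, Il1b, Sprr1b and Uox, and in each of them replicate 1 was the lowest mutant and replicate 3 the next. Krt6b, a keratin of activated epidermis, lay at 98.5, 2034, 284, 988, 1915 and 3229 CPM in mutant replicates 1 to 6 (9.24 ± 1.06), with 0.616 to 4.06 CPM (median 2.2) in wild type. Il1b, the gene of interleukin-1β, lay at 5.22, 138.1, 17, 75, 109 and 119.6 CPM. Acod1, whose enzyme makes itaconate in activated myeloid cells, lay at 1.19, 43, 2.25, 17.4, 15.5 and 18.9 CPM. The neutrophil attractant gene Cxcl3 lay at 0.475, 21.8, 2.56, 11.1, 19.8 and 15.2 CPM and had 1 count over the 6 wild-type libraries. Slc26a4, an anion exchanger gene, lay at 0.534, 24.8, 4.76, 13.2, 19.968 and 19.1 CPM with 2 counts over the wild-type libraries. Replicate 1 was within the wild-type range of 4.57 to 16.6 CPM for Sprr1b (7.71, 91.7, 20.3, 53.4, 167 and 258 CPM) and below that of 1.57 to 9.74 CPM for Gm49339 (0.653, 56.7, 19.997, 37.6, 50.2 and 45.1 CPM). The Sprr2 genes and pseudogene of this set have near-identical copies, so that their separate levels are uncertain. A few genes went against the order: Clca3a2 lay at 2304, 1445, 2436, 1912, 1443 and 1318 CPM and was highest in replicates 3 and 1, and Tnfsf15, a ligand of the TNF family, lay at 13.8, 9.05, 39.2, 11.1, 12.3 and 15.7 CPM and was highest in replicate 3.

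**Figure D4:**
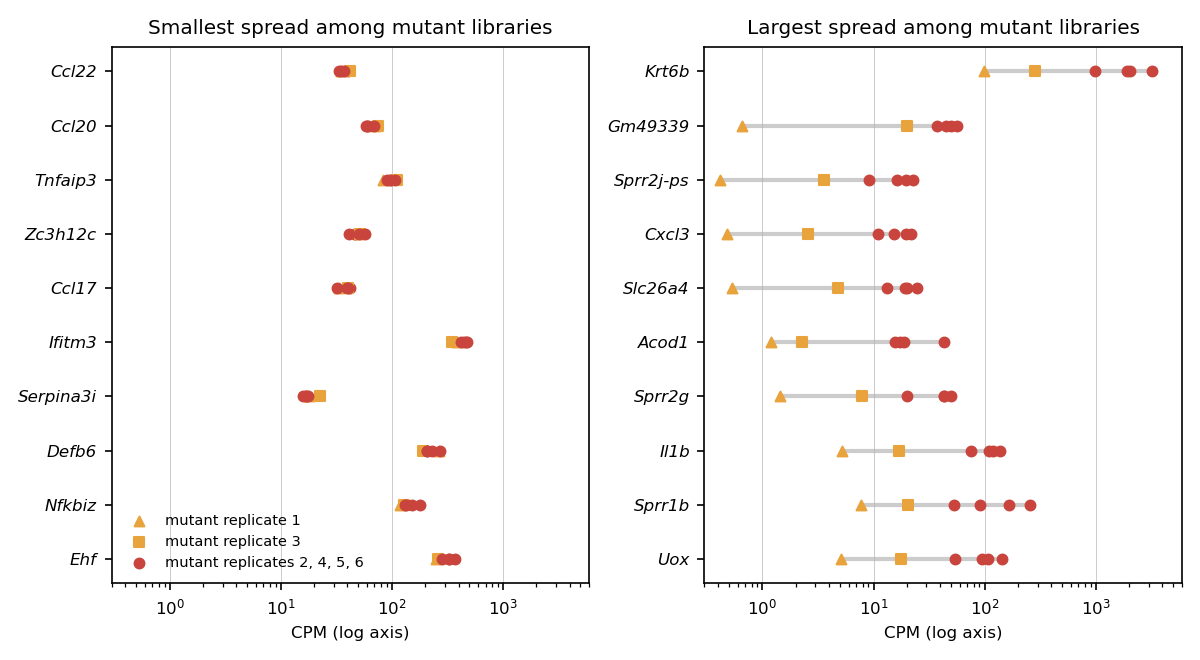
CPM (x axis, log scale) in the 6 mutant libraries of the 10 genes with the smallest (left) and the 10 with the largest (right) SD over mutants, for replicate 1 (triangles), replicate 3 (squares) and the other 4 (circles). On the left the points of a gene lie close together, as for Ccl20 at 59 to 75.1 CPM. On the right the triangle is the lowest and the square the next lowest in every gene, as for Krt6b at 98.5 and 284 CPM.

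Promoters of Ccl20, from the uniform set, Cxcl3, from the variable set, and the inhibitor genes Nfkbia, Nfkbid and Tnip1, from neither, are shown next because Ccl20 and Nfkbia are known targets of NF-κB. The letters are 250 bases up to the start of transcription in RefSeq (GRCm38.p6), written 5′ to 3′ on the gene's own strand, and capitals mark matches to the κB consensus, the binding motif of NF-κB. The motif and the sets were chosen after expression values were seen. None of these stretches lies in an annotated exon of GENCODE M21. They are the chemokine gene Ccl20 (chr1:83116516-83116765, plus strand), the inhibitor genes Nfkbia (chr12:55492648-55492897, minus strand), Nfkbid (chr7:30422156-30422405, plus strand) and Tnip1 (chr11:54962941-54963190, minus strand), and the chemokine gene Cxcl3 (chr5:90785851-90786100, plus strand).
Ccl20: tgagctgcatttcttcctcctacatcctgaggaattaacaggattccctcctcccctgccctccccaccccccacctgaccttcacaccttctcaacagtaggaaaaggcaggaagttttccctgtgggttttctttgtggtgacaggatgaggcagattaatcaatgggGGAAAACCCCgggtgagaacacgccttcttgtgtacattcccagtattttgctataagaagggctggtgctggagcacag
Nfkbia: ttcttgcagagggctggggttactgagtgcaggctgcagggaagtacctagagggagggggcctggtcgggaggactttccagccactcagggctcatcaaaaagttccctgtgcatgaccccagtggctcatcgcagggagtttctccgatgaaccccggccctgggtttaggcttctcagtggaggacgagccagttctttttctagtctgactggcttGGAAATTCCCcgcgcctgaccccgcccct
Nfkbid: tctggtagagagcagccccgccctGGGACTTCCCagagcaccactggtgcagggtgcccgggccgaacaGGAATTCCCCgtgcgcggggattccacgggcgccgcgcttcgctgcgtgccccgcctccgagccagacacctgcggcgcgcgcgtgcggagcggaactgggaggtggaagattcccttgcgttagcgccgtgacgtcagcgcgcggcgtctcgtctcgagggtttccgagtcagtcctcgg
Tnip1: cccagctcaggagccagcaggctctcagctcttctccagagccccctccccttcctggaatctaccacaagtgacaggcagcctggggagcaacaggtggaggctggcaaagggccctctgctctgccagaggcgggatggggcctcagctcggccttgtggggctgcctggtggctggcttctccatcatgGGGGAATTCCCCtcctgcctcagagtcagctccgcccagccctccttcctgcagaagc
Cxcl3: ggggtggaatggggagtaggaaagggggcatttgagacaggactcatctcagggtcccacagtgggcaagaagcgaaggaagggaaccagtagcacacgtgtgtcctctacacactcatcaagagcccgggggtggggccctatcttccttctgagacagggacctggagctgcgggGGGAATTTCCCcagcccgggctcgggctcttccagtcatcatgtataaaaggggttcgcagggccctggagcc
The match in Nfkbia begins 29 bases before the start, that in Ccl20 80 bases, and those of Cxcl3 overlap each other at 73 and 72 bases. Tnip1 has 3 overlapping matches from 58 bases, and Nfkbid 2 separate ones at 226 and 181 bases. Only stretches with a match could be shown, so that each carries the motif by selection. The promoter of Cxcl3 was the 1 of 6 in the variable set with a match, against 6 of 10 in the uniform set.

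Over 15646 promoters of 12301 genes tested, of 300 bases with 50 after the start, 10.36% held the κB consensus on either strand. The share was 14.89% of 376 promoters of genes raised by at least 2 on the log2 scale and 6.14% of 114 promoters of genes lowered by as much. It was 62.5% (10 of 16) in the list of NF-κB subunits and inhibitors, 60% (6 of 10) in the uniform set and 16.67% (1 of 6) in the variable set, of which 8 and 6 of 10 genes had a promoter in the table. The AP-1 motif (TGANTCA) was in 5.912% of all promoters, 15.43% of the raised and 5.263% of the lowered. For the STAT motif (TTCNNNGAA) the shares were 6.928%, 12.5% and 7.895%. The interferon-response motif (GAAA, any 2 bases, GAAA) was in 3.177%, 7.713% and 1.754%, and the E-box of clock factors (CACGTG) in 9.191%, 5.053% and 4.386%. The TATA box (TATAAA) stood in 8.398% of all, 23.67% of raised and 18.42% of lowered promoters, and in 5 of 6 of the variable set against 1 of 10 of the uniform set. Both strands were searched, and motif matches that overlap were each kept. A match describes letters only, and no test was made of these shares.

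The list of NF-κB subunits and their inhibitors was higher with few exceptions. Of 16 measured members 14 rose, none fell and 2 did not pass the test, with a median log2 fold change of 1.10 against -0.02 over all genes. The mean log2 difference of its members was 0.88, 1.15, 1.18, 1.18, 1.11 and 1.25 in mutant replicates 1 to 6, so replicate 3 was level with the others and replicate 1 somewhat below. Nfkbia, the gene of the inhibitor IκBα (ENSMUSG00000021025, GRCm38 chromosome 12, bases 55489410 to 55492647 on the minus strand), rose from 79.2 to 109.6 CPM (median 89.2) in wild type to 264 to 298 CPM (median 283) in mutants (1.62 ± 0.13, adjusted p = 3.86e-09). The 6 mutant values did not meet the wild-type range. Nfkbid, a nuclear IκB gene, rose from 1.69 to 3.53 CPM (median 2.3) in wild type to 7.83 to 23.3 CPM (median 14.9) in mutants (2.63 ± 0.24).

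TNF and its relatives signal through receptors that again reach NF-κB. In the TNF superfamily list 13 of 19 measured members rose and 1 fell, with a median of 0.96. Tnf itself was low, 1.21 to 1.79 CPM (median 1.42) in wild type and 7.12, 11.3, 11.4, 11.2, 11.5 and 13.1 CPM in mutant replicates 1 to 6 (2.87 ± 0.22). The receptor gene Tnfrsf1a rose from 147 to 181 CPM (median 158) to 244 to 346 CPM (median 306), and the ligand gene Tnfsf14 by 3.61 ± 0.45. The AP-1 and early response list had 9 of 15 members higher, none lower (median 1.05). Junb, an AP-1 subunit gene, rose from 65.5 to 85.7 CPM (median 77.4) in wild type to 209 to 341 CPM (median 294) in mutants (1.91 ± 0.18), Batf by 2.29 ± 0.33 and Fosl2 by 0.74 ± 0.14. Egr1, an early response gene, rose by 1.54 ± 0.27, with 95.4 CPM in mutant replicate 6 against a wild-type maximum of 95.1 CPM.

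STAT3 carries the signals of IL-6, IL-22 and oncostatin M in skin. Of the STAT3 and SOCS list 9 of 16 members rose and none fell (9 and 2 without mutant replicates 1 and 3, median 0.76). Its mean differences were 0.65, 1.25, 0.90, 1.20, 1.28 and 1.10 in mutant replicates 1 to 6. Socs3, the feedback inhibitor gene that STAT3 induces, rose from 11.7 to 23.5 CPM (median 20.7) in wild type to 82.8 to 215 CPM (median 163) in mutants (3.01 ± 0.22), and Stat3 itself from 185 to 217 CPM (median 199) in wild type to 411 to 674 CPM (median 631) in mutants (1.54 ± 0.14). Osm, the gene of oncostatin M, lay at 2.91, 21.5, 8.18, 21.7, 24.5 and 18.7 CPM in mutant replicates 1 to 6 and at most 0.408 CPM in wild type, and its receptor gene Osmr rose from 33.8 to 47.3 CPM (median 40.7) to 112 to 193 CPM (median 158). In the list of IL-10 and IL-20 family cytokines and receptors 7 of 11 members rose and 3 fell (median 0.98). The cytokine gene Il22 was without a count in wild type (6 libraries) and lay at 2.61, 21, 6.09, 19.4, 29.1 and 21.1 CPM in mutant replicates 1 to 6. The keratinocyte cytokine gene Il19 lay at 7.12, 79.7, 17.2, 63.8, 86.5 and 64.7 CPM, so that for both cytokines replicates 1 and 3 were the lowest. Il20rb, a receptor chain gene for IL-19, IL-20 and IL-24, fell from 170.1 to 231 CPM (median 200.3) to 93.6 to 165 CPM (median 107) (-0.78 ± 0.16).

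Interferon-induced genes rose broadly. In that list 21 of 24 measured members rose and none fell, with a median of 1.46. Irf1 rose from 12.2 to 19.9 CPM (median 15.4) in wild type to 41.1 to 79.2 CPM (median 50.4) in mutants (1.74 ± 0.17) and the antiviral gene Mx1 by 2.34 ± 0.24. Mean differences were 1.10, 2.10, 1.496, 1.66, 1.52 and 1.502 in mutant replicates 1 to 6, and the wild-type libraries themselves ranged from -0.54 to 0.61, the widest wild-type range of the 61 lists. Peptide loading on MHC class I followed, with 11 of 13 members higher and none lower (median 0.59). These held the immunoproteasome subunit genes Psmb8 (1.63 ± 0.23) and Psmb9 (1.40 ± 0.23), and H2-D1, a class I heavy chain, rose by 0.55 ± 0.18, though reads of its close paralogs can be misassigned. Over the proteasome list 15 of 19 rose and none fell, by a smaller median of 0.45, with Psme2 and Psmb10 at 1.136 ± 0.15 and 1.49 ± 0.23. For MHC class II 5 of 11 rose and none fell (median 0.51). Its transactivator gene Ciita rose by 1.08 ± 0.16 and the protease gene Ctss by 1.136 ± 0.18, while the invariant chain gene Cd74, the most abundant member, was at 402 to 579 CPM (median 452) and 278 to 589 CPM (median 499) (0.03 ± 0.20, adjusted p = 0.925).

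Genes of type 2 immunity, linked to IL-4, IL-13 and the epithelial alarmins, rose as well. Of 18 members, the cytokine genes Il4, Il5, Il25 and Ccl26 were below the filter and were not tested. Of the 14 measured 11 were higher and none lower (9 and none without mutant replicates 1 and 3, median 1.24). Il4ra, the receptor chain shared by IL-4 and IL-13, rose from 29.4 to 35.6 CPM (median 31.5) in wild type to 106 to 436 CPM (median 353) in mutants (3.205 ± 0.30), and the decoy receptor gene Il13ra2 rose by 3.64 ± 0.51. Chil3, a chitinase-like gene of myeloid cells, lay at 18.5, 96.7, 13.5, 116, 66.9 and 75.3 CPM in mutant replicates 1 to 6 and at most 0.247 CPM in wild type. Of the list of sensory and itch genes 5 of 13 rose and 2 fell (median 0.39). Ngfr, a receptor gene for neurotrophins, fell from 47.1 to 66.2 CPM (median 54) in wild type to 8.45 to 21.1 CPM (median 9.65) in mutants (-2.09 ± 0.22), and the groups did not overlap. Checkpoint and regulatory T-cell genes were higher in 8 of 14 and lower in 1 (median 1.19), with the PD-1 ligand genes Pdcd1lg2 (3.43 ± 0.47) and Cd274 (1.51 ± 0.26) and the IL-2 receptor chain gene Il2ra (2.93 ± 0.32) among them.

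Growth factors of the EGF family drive keratinocyte division in wounds. In this list 7 of 14 rose, 1 fell and 6 did not pass (median 0.31). The ligand genes Hbegf (2.60 ± 0.27), Epgn (4.72 ± 0.51) and Nrg1 (4.21 ± 0.36) rose, Hbegf to 17.6, 66.9, 27.2, 45.5, 55 and 35.7 CPM in mutant replicates 1 to 6. Inflammasome, caspase and gasdermin genes rose in 13 of 19 and fell in none (median 0.68). Nlrp3, a sensor gene of the inflammasome, lay at 4.09, 24, 7.98, 21.4, 22.3 and 26 CPM in mutant replicates 1 to 6 against 0.665 to 1.33 CPM (median 0.929) (4.19 ± 0.48). Gsdmc, a pore-forming gasdermin gene of epithelia, rose from 5.56 to 9.73 CPM (median 6.81) in wild type to 54.3 to 214 CPM (median 157) in mutants (4.33 ± 0.52). Its neighbour Gsdmc2 rose by 6.79 ± 0.65, and these near-identical copies may share reads. Of the genes that handle reactive oxygen, nitric oxide and itaconate 9 of 17 rose and 1 fell (median 0.82). Sod2, the mitochondrial superoxide dismutase, rose from 80.4 to 84.8 CPM (median 84.4) in wild type to 143 to 252 CPM (median 223) in mutants (1.29 ± 0.12), and the oxidase subunit gene Ncf1 rose by 1.80 ± 0.20. Among targets of NRF2, the factor of oxidative stress, 7 of 14 rose and 1 fell (median 0.30), led by the cystine transporter gene Slc7a11 at 34.8, 136, 45.8, 98.2, 114 and 105 CPM in mutant replicates 1 to 6 (4.80 ± 0.45). Genes for prostaglandins and leukotrienes were split, 6 higher and 6 lower of 19 (median 0.10, and -0.27 with 6 and 7 without mutant replicates 1 and 3). Alox8, a lipoxygenase of stimulated mouse epidermis, lay at 77.4, 460.0, 271, 354, 497 and 492.9 CPM in mutant replicates 1 to 6 against 0.725 to 2.68 CPM (median 1.39) (7.88 ± 0.64), and Ptges, for prostaglandin E2, rose by 2.02 ± 0.18, while the secreted phospholipase gene Pla2g2f fell by 0.75 ± 0.21.

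Metabolic genes divided between lists that followed response strength and lists that did not. Of the glycolysis list 13 of 20 rose and 1 fell (median 0.69), and its mean differences were 0.04, 0.82, 0.21, 0.50, 0.57 and 0.85 in mutant replicates 1 to 6, so that replicate 1 was inside and replicate 3 just above the wild-type range of -0.08 to 0.18. Pgk1 (1.31 ± 0.18), Pgam1 (1.33 ± 0.19) and the lactate exporter gene Slc16a1 (1.13 ± 0.14) rose, Pgam1 to 194, 401, 183, 320.3, 332 and 425 CPM in the same order. Oxidative phosphorylation genes rose in 8 of 20 and fell in none (7 and 1 without mutant replicates 1 and 3, median 0.38). Their mean differences were 0.40, 0.36, 0.26, 0.42, 0.30 and 0.43 in mutant replicates 1 to 6, with replicate 1 among the higher. Ndufa4 rose by 1.09 ± 0.14 and Cycs, the cytochrome c gene, by 0.64 ± 0.16. Of the citrate cycle list 4 of 15 rose and none fell (median 0.16), and citrate synthase itself, Cs, did not pass (0.12 ± 0.11, adjusted p = 0.385).

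Genes for building ribosomes rose in 16 of 18 and fell in 1 (median 0.91). Myc, the growth regulator that induces many of them, lay at 136, 144, 128, 152, 121 and 114 CPM in mutant replicates 1 to 6 against 51.7 to 67.2 CPM (median 58) in wild type (1.20 ± 0.10). The nucleolar genes Nolc1 and Nop56 rose by 1.19 ± 0.13 and 1.16 ± 0.13. Of ribosomal protein genes 5 of 22 were higher and none lower (3 and none without mutant replicates 1 and 3, median 0.37), and their mean difference was largest in replicate 1, with 0.70, 0.28, 0.34, 0.37, 0.15 and 0.39 over mutant replicates 1 to 6. Rpl37 was at 214 CPM in that library and at 128 to 149 CPM in the other mutants, and without replicates 1 and 3 its log2 fold change was 0.35 (edgeR adjusted p = 0.0903). Rplp0 did not pass (0.02 ± 0.20). Replicate 1 also had the largest ribosomal share of counts, which is summed over ribosomal protein genes and so is no separate measure. It had the lowest correlation with GC content too, -0.235. Replicate 6, with the next highest list value, had the highest GC correlation of the mutants, 0.212. Replicate 5, with the lowest list value, was at -0.134. The part of GC content in the list's values was not tested. Chaperone and folding genes of the endoplasmic reticulum rose in 10 of 18 and fell in 1 (median 0.54), among them Pdia4 (0.82 ± 0.11), Sdf2l1 (1.36 ± 0.21) and Calr (0.85 ± 0.16). Of genes for arginine, tryptophan and polyamines 9 of 15 rose and none fell (median 0.60), such as the amino acid transporter gene Slc7a5 (1.91 ± 0.21) and Odc1 (0.85 ± 0.15), the entry enzyme of polyamine synthesis. Metallothioneins and zinc transporters rose in 6 of 13 and fell in 1 (median 0.22), with Mt2 from 70.3 to 80.9 CPM (median 73.5) in wild type to 243 to 411 CPM (median 306) in mutants (2.10 ± 0.19) and the zinc importer gene Slc39a14 at 2.45 ± 0.20.

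Genes of contacts between epidermal cells moved in both directions. Of the desmosome list 10 of 13 members did not pass, 1 rose and 2 fell (median -0.06). Desmoplakin, Dsp, ran at 3687 to 4188 CPM (median 4064) in wild type and 3624 to 3857 CPM (median 3702) in mutants (-0.11 ± 0.19, adjusted p = 0.688), and the cadherin gene Dsg3 was the riser, from 105 to 126 CPM (median 114) in wild type to 239 to 404 CPM (median 352) in mutants (1.55 ± 0.29). Connexins, the channels between cells, went both ways, with 4 higher and 4 lower of 9 (median -0.12, with a mean over mutants of the other sign, 0.59). Gjb2, connexin 26, lay at 38.6, 423, 85.4, 232, 326 and 389 CPM in mutant replicates 1 to 6 against 16.9 to 22.1 CPM (median 19.6) (3.65 ± 0.42), and Gja1, connexin 43, rose by 1.52 ± 0.26. Tight junction genes fell in 5 of 14 and rose in 2 (median -0.31), Cgn falling from 82.3 to 108 CPM (median 99.6) in wild type to 21.1 to 56.7 CPM (median 28.8) in mutants (-1.60 ± 0.21) and F11r rising by 0.56 ± 0.09. Genes of hemidesmosomes and the basement membrane fell in 6 of 16 and rose in 1, with 9 not past the test (median -0.22), with the anchoring fibril gene Col7a1 at -1.51 ± 0.22 and the laminin chain gene Lamb3 at -0.84 ± 0.13.

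Kallikreins, the proteases that shed the horny layer, and their inhibitors rose in 7 of 16 and fell in 2 (median 0.58). The list's mean differences were -0.12, 1.33, 0.58, 0.68, 1.35 and 1.502 in mutant replicates 1 to 6, and replicate 1 was inside the wild-type range of -0.27 to 0.23. Replicates 1 and 3 were the lowest, but replicate 4, with a response strength of 1.09, was near replicate 3. Klk13 lay at 6.17, 106, 19.8, 47.5, 99.7 and 132 CPM (4.64 ± 0.61) and Klk6 at 10.3, 133, 53.9, 86.8, 171 and 206 CPM (3.68 ± 0.56) in these libraries, while the inhibitor gene Spink5 did not pass (-0.45 ± 0.29). Serpins rose in 7 of 19 and fell in 3 (median 0.23). Serpina3n rose from 29.2 to 40.4 CPM (median 30.3) in wild type to 221 to 372 CPM (median 297) in mutants (3.21 ± 0.21) and Serpinb3a by 5.76 ± 0.62, which has close copies. Coagulation and plasminogen genes rose in 7 of 13 and fell in 1 (median 0.80). F10, the gene of factor X, lay at 4.92, 25, 5.06, 17.7, 13.2 and 19.6 CPM in mutant replicates 1 to 6 and at most 0.578 CPM in wild type, whereas F3, the gene of tissue factor, fell from 105 to 117 CPM (median 111) in wild type to 32.1 to 53.3 CPM (median 34.8) in mutants (-1.52 ± 0.14).

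Of the list of barrier ceramides and lipids 5 of 21 rose and 5 fell (median 0.01, mean over mutants -0.067). These shares were near those of all genes tested (20.7% higher and 20.2% lower). The desaturase gene Degs1 was at 0.99 ± 0.12 and the ceramidase gene Acer1 at -0.88 ± 0.15. Cholesterol and fatty acid synthesis fell in 6 of 20 and rose in 1 (5 and 3 without mutant replicates 1 and 3, median -0.17), Fasn from 639 to 698 CPM (median 675) in wild type to 313 to 452 CPM (median 399) in mutants (-0.77 ± 0.16), with its regulator gene Srebf1 (-0.70 ± 0.14). Of the retinoid list 2 of 18 rose and 5 fell (median -0.21). Dhrs9 and Aldh1a3, whose enzymes work on the path to retinoic acid, rose by 2.80 ± 0.40 and 1.97 ± 0.29, and Bco1, which cleaves carotene, fell by 2.48 ± 0.32.

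Developmental signalling was mostly lower. Of 29 measured genes of Notch, Wnt, BMP and Hedgehog signalling 15 fell and 3 rose (median -0.54, and -0.49 with a gene that had no count in mutants at its bound). Axin2, a direct target of Wnt signalling, fell from 66.6 to 84.3 CPM (median 78.8) in wild type to 26.2 to 50.7 CPM (median 28.5) in mutants (-1.16 ± 0.15), and the secreted Dkk3 fell by 1.11 ± 0.14, while Id1, a target of BMP signalling, rose from 61.8 to 80.4 CPM (median 67.5) in wild type to 122 to 168 CPM (median 149) in mutants (1.09 ± 0.15). The list's mean differences were -0.15, -0.61, -0.17, -0.47, -0.62 and -0.65 in mutant replicates 1 to 6, smallest in replicates 1 and 3. In the TGF-β and activin list 8 of 16 fell and 3 rose (median -0.33). The ligand genes differed, with Tgfb2 at -1.56 ± 0.20, Tgfb3 at -1.16 ± 0.21 and Tgfb1 at 1.03 ± 0.20. Of 19 epidermal transcription factor genes 13 did not pass, 4 rose and 2 fell (median 0.14), with Cebpd at 1.99 ± 0.26 and Sox9, of the hair follicle, at -0.88 ± 0.15.

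Markers of other cells in the ear moved in both directions. In whole tissue, fewer cells of a type and less RNA per cell cannot be told apart, and neither can a larger share of other RNA. Of 13 neutrophil markers, Ly6g, Ngp, Camp and Elane were below the filter and were not tested. Of the 9 measured 7 rose and 1 fell (median 5.07), with mean differences of 3.02, 5.35, 3.38, 4.86, 4.59 and 4.72 in mutant replicates 1 to 6. Cxcr2, the chemokine receptor gene of neutrophils, lay at 34, 118, 41.6, 100.1, 113 and 105 CPM in those libraries against 3.24 to 5.24 CPM (median 3.67) (4.44 ± 0.38), and keratinocytes can also make the S100a8 and S100a9 of this list. Macrophage and monocyte markers rose in 11 of 12 and fell in none (median 1.17), and here replicate 6 was the highest of the mutants at 2.08. Ly6c2, a gene of inflammatory monocytes, lay at 7.24, 32.5, 4.96, 29.8, 27.1 and 33.7 CPM (4.07 ± 0.44) and the scavenger receptor gene Cd163 at 76.9, 279, 132, 224, 255 and 426 CPM (2.12 ± 0.31). Of Langerhans and dendritic cell markers 4 of 9 rose and none fell (4 and 1 without mutant replicates 1 and 3, median 0.60). They did not follow response strength, since mean differences were 0.94, 0.73, 1.11, 0.99, 0.53 and 0.57 and replicate 3 was the highest. Ccr7, the receptor by which dendritic cells leave tissue, lay at 5.22, 5.39, 4.76, 3.56, 3.94 and 5.17 CPM (3.24 ± 0.32).

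Of T-cell markers 5 of 11 fell and none rose (median -0.18). Trdc, the constant region gene of the γδ receptor, lay at 10.7, 6.88, 10.2, 8.15, 7.29 and 3.85 CPM in mutant replicates 1 to 6 against 12.2 to 25.2 CPM (median 22.6) in wild type (-1.44 ± 0.22), and Cd3e fell by 1.24 ± 0.21. Mast cell markers were mostly not called, 7 of 12, with 3 higher and 2 lower (median -0.25, mean over mutants 0.12). Hdc, the histidine decarboxylase gene, which neutrophils can also express, lay at 6.88, 66.4, 15.8, 47.1, 52.4 and 65.3 CPM (3.09 ± 0.46), and the mast cell protease gene Mcpt4 did not pass (-0.24 ± 0.27). Of 11 eosinophil and basophil genes only 5 were measured, with Prg2, Epx, Il5ra and Mcpt8 among those below the filter. Of the 5 measured 3 rose, all from low levels: Siglecf was at 0.178 to 1.03 CPM (median 0.937) in mutants. Of the B-cell list only 4 of 11 genes were measured, 2 fell and 1 rose, and Ighm fell from 12.6 to 16.9 CPM (median 14.8) in wild type to 4.81 to 9.08 CPM (median 5.85) in mutants (-1.26 ± 0.18).

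In vessels 9 of 14 endothelial genes did not pass, 3 rose and 2 fell (median -0.06), while genes of endothelial activation and leukocyte adhesion rose in 7 of 15 and fell in 2 (7 and 4 without mutant replicates 1 and 3, median 0.35). Flt1, a VEGF receptor gene, rose by 0.65 ± 0.10, and of the adhesion genes of inflamed vessels Icam1 rose from 23 to 28 CPM (median 24.8) in wild type to 85.4 to 111 CPM (median 96.2) in mutants (1.95 ± 0.14) and Selp, P-selectin, by 2.58 ± 0.23. Smooth muscle and pericyte genes fell in 5 of 12 and rose in none (median -0.33), with Cspg4 at -1.40 ± 0.17. Schwann cell and myelin genes fell in 8 of 12 and rose in none (median -0.71).

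The deeper tissues were lower in all mutants. All 10 cartilage markers fell (median -1.82), Col9a1 from 48.6 to 71.3 CPM (median 56) in wild type to 7.62 to 19.997 CPM (median 10.6) in mutants (-2.31 ± 0.22) and Acan to a lesser degree (-1.20 ± 0.21). Their mean differences were -1.88, -2.33, -1.05, -1.98, -1.61 and -1.66 in mutant replicates 1 to 6, smallest in replicate 3, while replicate 1 was among the lower libraries. Of skeletal muscle markers 6 of 10 fell and none rose (10 and none without mutant replicates 1 and 3, median -0.95), at -0.50, -1.38, -0.37, -0.86, -1.42 and -1.40, and of adipocyte markers 8 of 10 fell and none rose (median -1.05), at -0.66, -1.17, -0.42, -1.13, -1.68 and -1.40. In muscle and fat replicates 1 and 3 thus differed least from wild type. Plin1, which coats fat droplets, lay at 22.3, 21.7, 34.9, 22.9, 19 and 21.4 CPM against 56.7 to 93.5 CPM (median 64.5) (-1.54 ± 0.20). Melanocyte markers fell in 7 of 8 and rose in none (median -1.67), by nearly the same amount in every mutant, -1.39, -1.73, -1.31, -1.52, -1.47 and -1.75. Tyrp1, a pigment enzyme gene, lay at 6.35, 4.24, 4.14, 5.4, 5.5 and 3.73 CPM against 16.4 to 26.7 CPM (median 22.4) (-2.19 ± 0.22), while Mitf, which has isoforms in other cells, did not pass (-0.30 ± 0.26). Fibroblast markers fell in 4 of 10 and rose in 1 (median -0.34), and keratinocyte markers rose in 3 and fell in 2 of 10 (median 0.08, mean over mutants -0.0301), with Sfn at 0.99 ± 0.17. Erythroid genes, a sign of blood in the sample, fell in 1 and rose in none of 7 (median 1.08, mean over mutants -0.15, and a median of -0.23 with only the 12 libraries of day 5; 1 rose and none fell without mutant replicates 1 and 3), and their mean difference was 1.62 in mutant replicate 6 against -1.08 to -0.15 in the other mutants.

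Clock genes were lower as a group. Of 18 measured 11 fell and 2 rose (median -0.85), with mean differences of -0.67, -0.79, -0.39, -0.70, -0.90 and -0.72 in mutant replicates 1 to 6 and -0.08 to 0.07 in wild type. Dbp, a clock output gene, fell from 80.8 to 123 CPM (median 89.4) in wild type to 10.1 to 24.3 CPM (median 20.3) in mutants (-2.30 ± 0.20), Nr1d1, a repressor of the clock loop, from 212 to 317 CPM (median 239) in wild type to 62.5 to 110.1 CPM (median 78.2) in mutants (-1.63 ± 0.16), and Tef fell by 1.13 ± 0.13. These genes swing over the day, and since the hour of sampling is not given, genotype and hour cannot be told apart for them. Glucocorticoid targets rose in 3 and fell in 2 of 12 (2 and 7 without mutant replicates 1 and 3, median -0.35), with Fkbp5 at 0.78 ± 0.13 and Klf9 at -0.87 ± 0.22. Hypoxia genes rose in 5 of 14 and fell in 1 (median 0.29), with the glucose transporter gene Slc2a1 at 54.9, 137, 62, 102, 113 and 141 CPM in mutant replicates 1 to 6 (0.96 ± 0.21). Of the DNA damage and senescence list 11 of 14 did not pass, 1 rose and 2 fell (median 0.09), and the cell cycle inhibitor gene Cdkn1a was at 188 to 231 CPM (median 208) and 154 to 207 CPM (median 186) (-0.19 ± 0.15, adjusted p = 0.336).

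**Figure D5:**
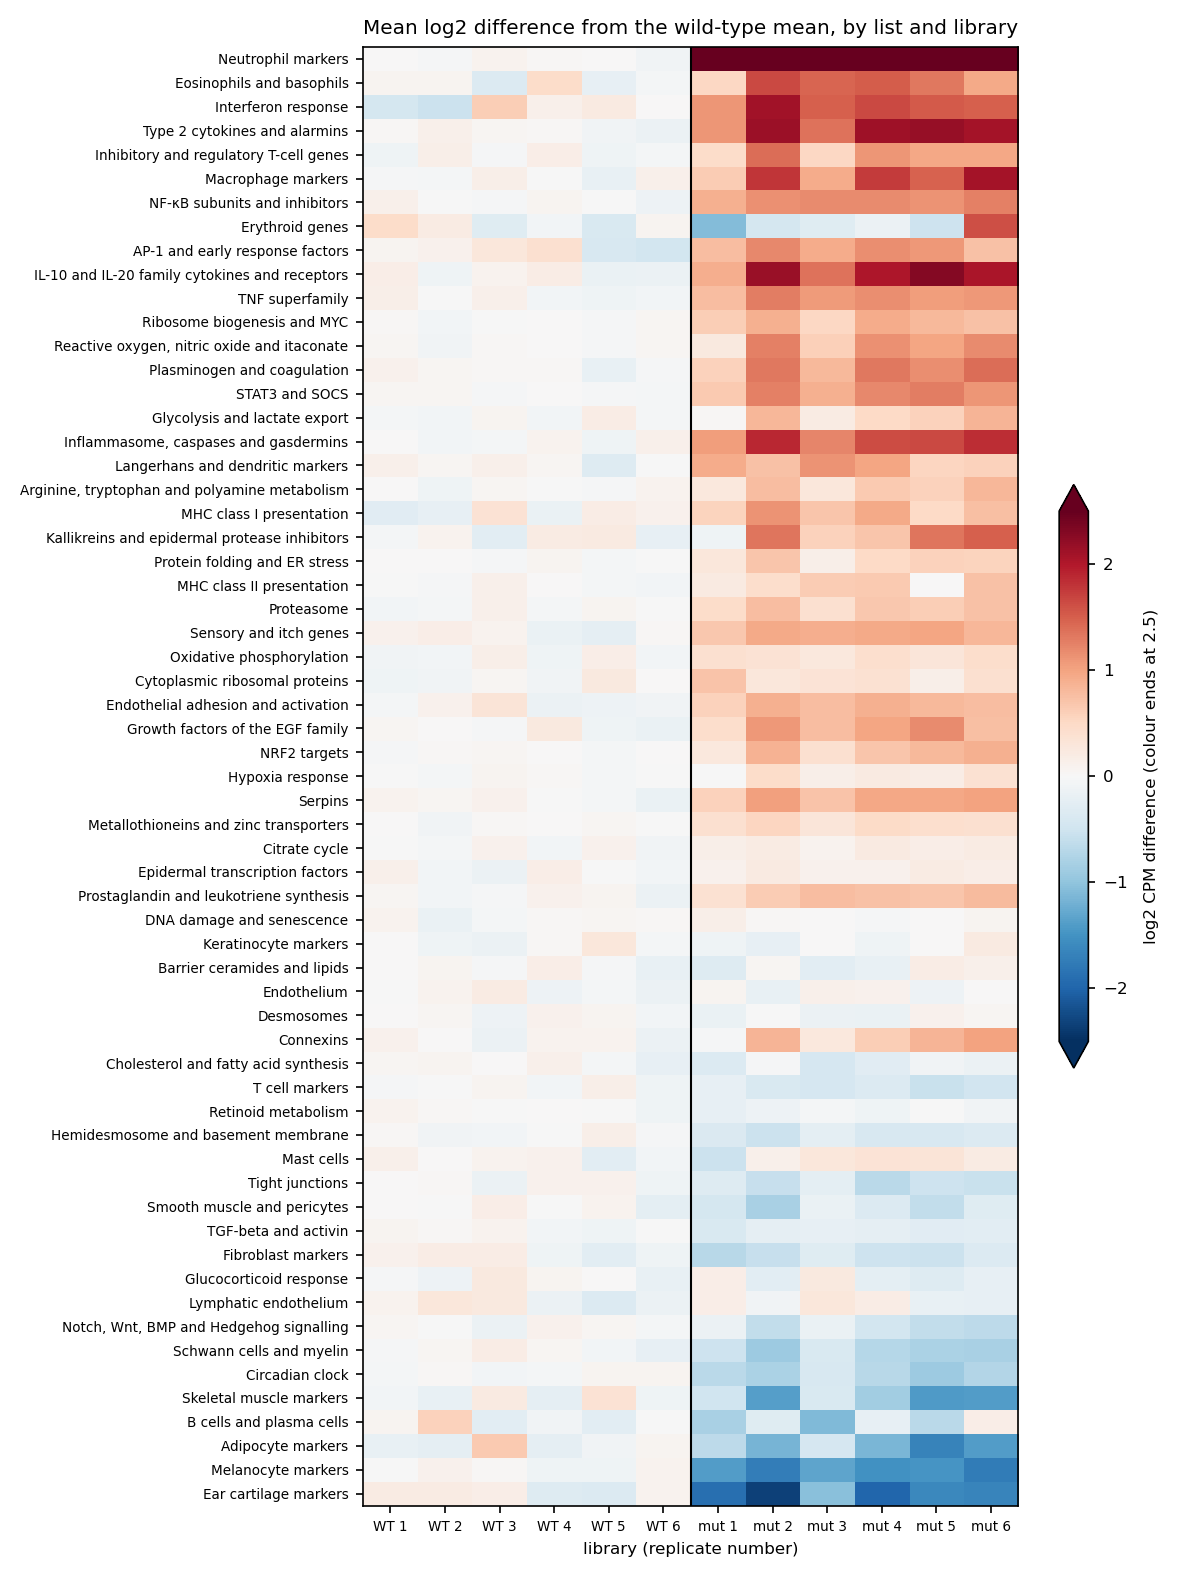
Mean log2 CPM difference of the measured members of each list (rows, ordered by the median log2 fold change) from the wild-type mean, in the 6 wild-type and 6 mutant libraries (columns, by replicate number), coloured from blue (lower) to red (higher), with the colour ending at 2.5. NF-κB subunits are alike over the mutants (0.88 to 1.25), while glycolysis is near 0 in mutant replicate 1 (0.04) and at 0.50 to 0.85 in replicates 2, 4, 5 and 6.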

How the data were processed

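Whole-ear polyA RNA of the 24 samples was sequenced as single-end reads, per the labels' protocols. The deposited table holds expected counts per gene, which its column headers tie to RSEM. Per the file headers no scaling is recorded. The submitters' processing notes name RSEM 1.3.0, STAR 2.5.2, DESeq2 1.14.1 and GRCm38. The annotation release and strand setting are not given in the sources used here. Of the values 6.71% were not whole and were rounded, and 51719 of 51912 gene identifiers were found in GENCODE M21 (GRCm38).

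Counts were fitted in R 4.3.3 with edgeR 4.0.16. Filtering with filterByExpr by group left 17287 genes, TMM factors scaled the libraries, and the robust quasi-likelihood pipeline took all 24 libraries with a coefficient for each group. Two-sided tests of the day 5 contrast were adjusted over all genes (Benjamini-Hochberg, threshold 0.05), and SE was the size of the log2 fold change divided by the root of F. The 4 groups share 1 estimate of spread. CPM are scaled by TMM, log2 CPM having a prior count of 2. Totals of 15661515 to 18852963 counts set the precision. Of 17287 genes with simulated counts, 16867 passed the filter again. In these counts edgeR recovered 17 of 67 genes at a 1.5-fold change, 47 of 67 at 2-fold and 62 of 66 at 4-fold, and called 3 unchanged genes. Only these few genes were changed, all of about 1 CPM or more in wild type, whereas 40.9% of genes were called in the data. The rates therefore need not hold for the day 5 contrast.

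The 61 lists (855 of 894 members measured) came from general knowledge, and lists and rules were chosen with earlier results of these data known, so that they give no independent support. Named genes were Card14, the 15 largest gains and losses of mean CPM among genes past the test, of each list up to 3 members with the smallest adjusted p and the most abundant, and the 10 largest and smallest SD over mutants. Some genes that the rule takes are not reported here. No list was tested. Tnip1, outside that rule, was chosen for its promoter after values were seen. Library measures were compared by exact permutation tests, whose smallest p is 0.00216 for 6 against 6. Promoters are those of the RefSeq table (GRCm38.p6).

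Alternatives were RLE factors, total counts only, DESeq2 1.42.0, limma 3.58.1 voom with quality weights, no filter, at least 1 CPM in 6 libraries, only the 12 libraries of day 5, a replicate block, and leaving out each library. Leaving out mutant replicates 1 and 3 together was added after seeing the data. Same-numbered libraries of the genotypes had correlations of deviations from -0.158 to 0.0514. No effect shared by number was seen, but this cannot exclude a pairing, which the labels do not give. No pair of day 5 libraries of the same genotype was alike within sampling noise (chi-square per degree of freedom at least 4.86). Pairs across genotypes were not compared in this way.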

Additional observations from a re-analysis of the deposited data

Results flagged for a closer look

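In 21 of 358 groups of 6 libraries examined, 1 library stood apart from the other 5 by Dixon's criterion (a gap over 0.625 of the range), and chance flags about 1 in 20 groups. Among wild-type libraries 1 was high for Cxcl3 at 0.0604 CPM in replicate 3 (0 in the other 5), Cycs at 35.8 CPM in replicate 3 (26 to 29.2 in the other 5) and Krt15 at 1876 CPM in replicate 5 (1376 to 1522 in the other 5). The same held for Lamb3 at 188 CPM in replicate 5 (127 to 146 in the other 5), Rplp0 at 2745 CPM in replicate 5 (2069 to 2308 in the other 5) and Serpina3n at 40.4 CPM in replicate 3 (29.2 to 33 in the other 5). The same held for Slc7a11 at 4.14 CPM in replicate 4 (2.72 to 3.25 in the other 5) and Sprr2a2 at 82.2 CPM in replicate 5 (8.4 to 26.4 in the other 5). Among wild-type libraries 1 was low for Socs3 at 11.7 CPM in replicate 6 (19.2 to 23.5 in the other 5), Sod2 at 80.4 CPM in replicate 1 (83.4 to 84.8 in the other 5) and Tgfb2 at 41.3 CPM in replicate 5 (54.7 to 60.4 in the other 5). So it was for Trdc at 12.2 CPM in replicate 6 (20.6 to 25.2 in the other 5). Among mutant libraries 1 was high for Cgn at 56.7 CPM in replicate 3 (21.1 to 32.2 in the other 5), Plin1 at 34.9 CPM in replicate 3 (19 to 22.9 in the other 5) and Rpl37 at 214 CPM in replicate 1 (128 to 149 in the other 5). The same held for Serpina3i at 22.5 CPM in replicate 3 (15.7 to 18.2 in the other 5) and Tnfsf15 at 39.2 CPM in replicate 3 (9.05 to 15.7 in the other 5). Among mutant libraries 1 was low for Siglecf at 0.178 CPM in replicate 1 (0.716 to 1.03 in the other 5) and Tnf at 7.12 CPM in replicate 1 (11.2 to 13.1 in the other 5). Mutant replicate 3 had 23192 genes with a count, against 22528 to 22727 in the other 5. Wild-type replicate 5 had 20.8% of its counts in the 50 most abundant genes, against 19.3 to 19.6% in the other 5.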

How the results depend on the processing

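The counts of 3579 higher and 3489 lower genes became 5688 and 6005 with limma voom and quality weights and 5093 and 4820 with only the 12 libraries of day 5. With the replicate block, which pairs libraries by number although the labels give no pairs, they became 2769 and 2761. They were 3832 and 3596 with DESeq2, 3332 and 3766 with total counts only, and 3089 to 3658 and 3048 to 3750 with each library left out. Total counts only moved the median of all genes from -0.02 to -0.07. The response strengths of mutant replicates 1 and 3 were 0.582 to 0.666 and 0.608 to 0.693 with each other library left out, of replicates 2, 4, 5 and 6 1.13 to 1.24, 1.01 to 1.13, 1.02 to 1.13 and 1.08 to 1.19, and of the wild-type replicates 0.0274 to 0.0423, -0.0118 to -0.00201, 0.0135 to 0.0255, 0.0346 to 0.0493, 0.0207 to 0.0382 and 0.0442 to 0.0593. On genes of at least 5 CPM that of wild-type replicate 3 was -0.011.

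With a library left out, mutant minus wild type was 1482070 to 1894210 in total count and 0.517 to 0.973 in the percentage of ribosomal protein counts, and adjusted p reached 0.0649 in both. It was 35.4 to 175.4 genes with a count, -1.91 to -0.793 for the 50 most abundant genes, -0.166 to 0.0336 for the mitochondrial percentage, which changed sign without wild-type replicate 3 (0.0177) or mutant replicate 6 (0.0336), and -0.135 to -0.0424 for the GC correlation.

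Of 172 named genes, 160 kept direction and call in every setting in which they were tested, 168 being tested with only the 12 libraries and 171 under the strict filter. Card14 turned negative with total counts only (-0.0201), without wild-type replicate 3 (-0.0357) or 6 (-0.0455), without mutant replicate 3 (-0.121) or 6 (-0.00806) or 1 and 3 together (-0.0778), and by voom (-0.0812), with -0.121 to 0.0821 over single libraries left out. Cd74 did so with total counts only (-0.012), without wild-type replicate 6 (-0.00998), without mutant replicate 3 (-0.0598), 4 (-0.0149) or 6 (-0.0138) or 1 and 3 together (-0.0599), and by voom (-0.0425), with -0.0598 to 0.147 over single libraries. Rplp0 did so with total counts only (-0.0181), without wild-type replicate 2 (-0.00252), without mutant replicate 1 (-0.0376) or 1 and 3 together (-0.0757), and by voom (-0.00307), with -0.0376 to 0.0842 over single libraries. None of these 3 passed the test in any of these settings. With the replicate block Atp2a1, Gm49339, H2-D1 and Rpl37 lost their call. Atp2a1 also lost it with no filter (edgeR adjusted p = 0.0793). Voom called Krt10, Mitf, Spink5 and Cdkn1a lower and Cs higher. The fit of 12 libraries also called Krt10, Mitf and Spink5 lower. With only the 12 libraries, where fewer genes pass the filter, list medians went from 0.98 to 0.43 for the IL-10 and IL-20 family, from 1.64 to 0.51 for eosinophils and basophils, from 0.39 to 0.69 for sensory genes, from 0.22 to 0.39 for metallothioneins, from -0.18 to -0.38 for T cells and from 1.08 to -0.23 for erythroid genes. The ceramide median of 0.01 was -0.045 with total counts only. Without mutant replicates 1 and 3 medians became -0.27 for prostaglandins, 0.23 for ribosomal proteins, -0.18 for connexins, 0.11 for ceramides, -0.0998 for cholesterol synthesis, -0.15 for endothelium and -0.53 for glucocorticoid targets. That of the IL-10 and IL-20 family went from 0.98 to 0.68. The causes were not tested.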
